A study of Homo sapiens with 15 samples.

Results

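The 41 genes described here act in DNA replication and S phase. They were chosen by symbol for their roles in origin licensing, the replication fork and nucleotide synthesis, with E2F and cyclin genes left out, and all 41 were found among the 57500 genes of each count table. The rule itself uses no measured value. RNA was sequenced from K562, an established human line that came from a patient with chronic myeloid leukaemia, in 5 groups of 3 libraries, all sampled after 1 h. JQ1 is a BET inhibitor: it occupies bromodomains, the protein modules that bind acetylated histones, and JQ1-FCPF is the form of JQ1 named for FCPF, the tag that also names the transfected protein Cas9FCPF.

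Cells of the group JQ1-FCPF with sgRNA were transfected with Cas9FCPF and sgRNA and given JQ1-FCPF at 1 µM. The group JQ1-FCPF without sgRNA received Cas9FCPF alone and the same compound at 1 µM. JQ1 with sgRNA and JQ1 without sgRNA were the corresponding groups given JQ1 at 1 µM. The control is labelled WT for genotype and NT for treatment, whereas the series text names DMSO, and no source used here says that these cells were transfected. Each contrast with the control therefore holds transfection, Cas9FCPF and compound together, and those of the groups with sgRNA hold the sgRNA as well. The contrasts between treated groups do not hold all of these together. The target of the sgRNA and the number of separate cultures are not given in the labels, and each p-value is thus relative to the spread among libraries of a group, which may be technical.

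Before S phase the origin recognition complex, CDC6 and CDT1 load the MCM2-7 complex onto DNA as an inactive ring. CDC45, the GINS complex and MCM10 then turn it into the active CMG helicase, DNA polymerases alpha, delta and epsilon copy the strands, the clamp PCNA holds polymerases on DNA, and ribonucleotide reductase and thymidylate synthase supply the nucleotides. Many of these genes are transcribed at the border of G1 and S phase by E2F factors, and K562 cells in culture cycle continuously, so the whole set is expected to be transcribed in them.

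All 41 genes were well detected, and the lowest count of any of them in any library was 168 (library totals 12625669 to 17544518, with 22970 to 27248 genes detected). Together they took 0.504 to 0.587% of the counts of a library. Expressed per gene length, in TPM, the median gene of the set had a level of 60.2 TPM over the 15 libraries, above 83.1% of the 15517 genes tested, whose median was 11.6 TPM. PCNA had the highest level per length, 452 ± 56.6 TPM (SD, n = 15), followed by MCM7 at 368 ± 37.5 TPM and TK1, the thymidine salvage kinase, at 325 ± 39.6 TPM. GINS3 and POLD3 had the lowest levels, 10.2 ± 2.45 TPM and 10.3 ± 1.55 TPM. Subunits of a complex did not have equal levels per length: within GINS, GINS2 stood at 55.3 ± 6.23 TPM and GINS3 at 10.2 TPM. Within MCM2-7 the range ran from MCM5 at 93.7 ± 12.2 TPM to MCM7. Ranks in TPM depend on the length given for each gene, and that of MCM5, 7338 bases, was the largest in MCM2-7. CPM are counts scaled to the library total with TMM adjustment and are not divided by length. In CPM, MCM5 averaged 258 in the control, above MCM2 at 174 and MCM6 at 163.

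**Figure D1:**
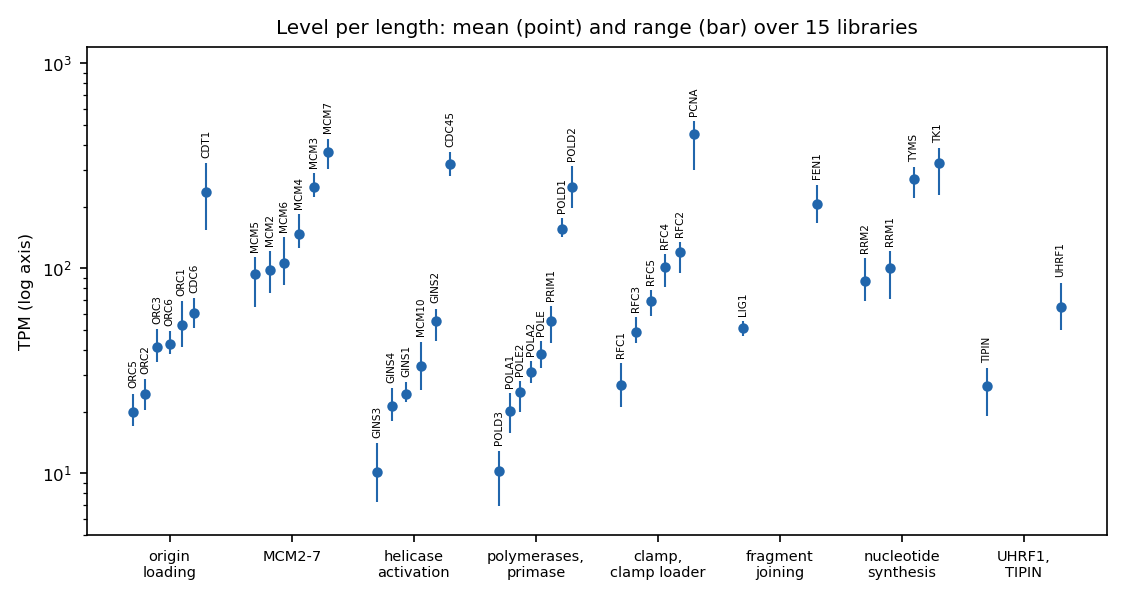
Level per gene length (TPM, log axis) of the 41 replication genes, grouped by role; points are means over 15 libraries and bars run from the lowest to the highest library. PCNA sits highest at 452 TPM, and GINS3 and POLD3 lowest at 10.2 and 10.3 TPM.

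Among loading factors CDT1 stood apart at 235 ± 49.3 TPM, against 60.2 ± 5.76 TPM for CDC6 and 19.9 ± 2.39 TPM for ORC5, the lowest of the group. ORC1, at 53.0 ± 8.25 TPM, lay within its spread of CDC6. CDC45 led the activation factors at 322 ± 22.8 TPM. Among polymerase genes POLD2, an accessory subunit of polymerase delta, had the highest level (249 ± 33.8 TPM), and POLD3, another accessory subunit of the same enzyme, the lowest. LIG1, the ligase that joins Okazaki fragments, had a coefficient of variation of 5.09% in CPM over the 15 libraries. GINS1 varied less, with 4.38%, and GINS3 varied most, with 24.5%.

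Of the 15 libraries, 2 stood apart for these genes. JQ1 with sgRNA replicate 1 had the lowest value of all libraries for 13 of 41 members and 7.38% of its counts in mitochondrially encoded genes, against 2.28 to 5.91% in the other libraries. JQ1-FCPF with sgRNA replicate 2 lay nearer the mean of the 6 JQ1 libraries than that of the 6 libraries of JQ1-FCPF without sgRNA and of the control for 30 of 41 members, against 9 for replicate 1 and 12 for replicate 3. Counts of calls are therefore also given without these 2 libraries. Both were singled out by values of these same genes, so a count without them is a description and no support for a difference. Erythroid genes marked the line, with GATA1 at 189 to 303 CPM and HBG2 at 478 to 856 CPM. Of 10 such markers, 4 were lower and 0 higher in JQ1-FCPF with sgRNA against the control (NFE2 by 2.13-fold, KLF1 by 1.85-fold, TFRC by 1.62-fold and TAL1 by 1.53-fold), and 0 passed in JQ1-FCPF without sgRNA. In JQ1 with sgRNA, KLF1 and TFRC were lower and HBE1 higher, and in JQ1 without sgRNA TFRC was lower and HBE1 higher. Of all genes tested, 4.79% were called lower and 2.42% higher in JQ1-FCPF with sgRNA, and 0.00644% and 0% in JQ1-FCPF without sgRNA. These shares were 7.04% and 7.21% in JQ1 with sgRNA and 6.23% and 6.07% in JQ1 without sgRNA. Summed, the 10 markers had 1861 to 2067 CPM in JQ1-FCPF with sgRNA, 2333 to 2466 in JQ1-FCPF without sgRNA, 1953 to 2482 in JQ1 with sgRNA, 2436 to 2671 in JQ1 without sgRNA and 2377 to 2483 in the control, and their part in the results was not tested. Defining markers of B cells, T cells and fibroblasts were at or near 0 (MS4A1 at 0 to 0.0625, CD3E at 0 to 0.650 and COL1A2 at 0 to 0.217 CPM). Not every marker of other cell types was low: CD3D had 18.7 to 31.9, EPCAM 64.0 to 79.2 and KRT8 414 to 660 CPM. The labels call the cells lymphoblasts.

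The promoters of 5 members on which the results turn are shown with the E2F, NF-Y and GC box letters each holds. No kind of box is in all 5 printed stretches. In the longer windows searched, each of the 5 genes held a GC box in at least 1 window. Each stretch runs 5′ to 3′ on the strand of the gene from 180 bases before to 20 bases from the RefSeq start (GRCh38.p14): chr10:13161378-13161577 on the plus strand for MCM10, chr16:58392291-58392490 on the plus strand for GINS3, chr19:4909321-4909520 on the plus strand for UHRF1, chr2:10122559-10122758 on the plus strand for RRM2 and chr15:66356666-66356865 on the minus strand for TIPIN. Capitals mark letters of an E2F site (TTTCCCGC, TTTGGCGC, TTTCGCGC or TTTGCCGC), of the same site with G as its last letter, of an NF-Y box (CCAAT) or of a GC box (GGGCGG), on either strand.
MCM10: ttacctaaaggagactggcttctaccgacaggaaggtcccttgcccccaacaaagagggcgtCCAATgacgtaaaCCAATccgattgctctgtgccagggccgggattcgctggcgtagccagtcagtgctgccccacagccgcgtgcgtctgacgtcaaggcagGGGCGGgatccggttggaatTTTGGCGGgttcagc
GINS3: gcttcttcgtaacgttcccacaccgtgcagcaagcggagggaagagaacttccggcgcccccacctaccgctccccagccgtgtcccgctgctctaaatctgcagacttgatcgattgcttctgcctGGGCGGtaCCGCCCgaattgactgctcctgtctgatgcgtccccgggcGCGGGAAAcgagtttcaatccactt
UHRF1: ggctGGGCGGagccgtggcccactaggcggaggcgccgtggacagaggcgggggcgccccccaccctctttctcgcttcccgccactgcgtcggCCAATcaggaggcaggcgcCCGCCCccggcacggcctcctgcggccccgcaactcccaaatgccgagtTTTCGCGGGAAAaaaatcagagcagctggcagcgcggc
RRM2: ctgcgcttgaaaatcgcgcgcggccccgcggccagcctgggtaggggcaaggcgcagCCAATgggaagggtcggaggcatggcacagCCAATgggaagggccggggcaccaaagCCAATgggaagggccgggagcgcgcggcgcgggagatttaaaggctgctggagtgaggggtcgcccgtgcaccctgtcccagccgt
TIPIN: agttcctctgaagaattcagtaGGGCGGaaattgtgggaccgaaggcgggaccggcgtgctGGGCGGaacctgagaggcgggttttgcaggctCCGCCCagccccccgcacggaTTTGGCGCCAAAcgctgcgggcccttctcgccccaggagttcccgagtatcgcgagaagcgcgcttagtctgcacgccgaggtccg

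Counted from the start base as 0, GINS3 had an E2F site on its minus strand at -5, and UHRF1 had the overlapping run of an E2F site at -14 and of its form ending in G at -18. TIPIN held 2 overlapping matches on opposite strands at -66 and -62. MCM10 had no match but the form ending in G at 5, behind NF-Y boxes at -118 and -105. RRM2 had no E2F match and 3 NF-Y boxes at -123, -93 and -66.

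Over the set, 37 of 41 members had a RefSeq window of 250 bases before to 50 after a start, 48 windows in all, and none was used for MCM4, MCM5, GINS4 and POLD3. An E2F site lay in at least 1 window of 20 of the 37 genes (54.1%), against 3.99% of all 27305 genes with windows. By window the shares were 43.8% of 48 and 3.31% of 35116. The form ending in G, added after the windows had been read, was in 24.3% of members and 3.71% of all genes, an NF-Y box in 64.9% and 39.7%, and a GC box in 75.7% and 48.3%. The E-box CACGTG was in 8.11% of members and 8.77% of all genes. The CHR letters TTTGAA, known from promoters of G2/M genes, were in 2.7% of members and 18.2% of all genes. GC boxes may overlap other motifs, and a match is only a description of these letters.

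**Figure D2:**
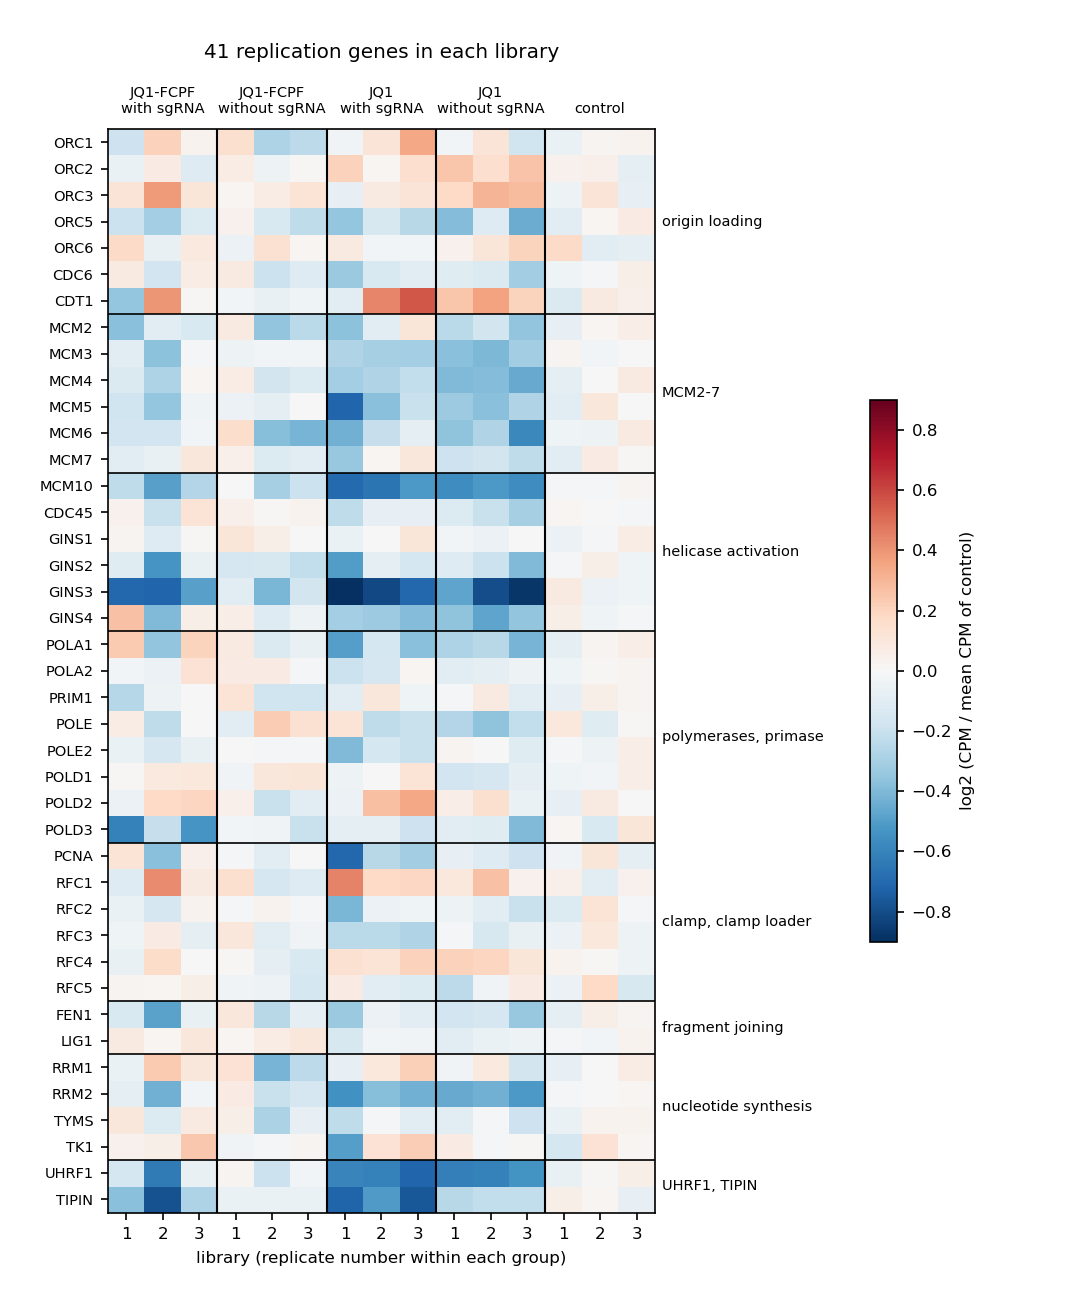
Level of each of the 41 genes in each of the 15 libraries, as the log2 ratio of CPM to the mean CPM of the 3 control libraries (colour scale; blue is lower), with genes grouped by role and libraries by group. GINS3, MCM10 and UHRF1 are blue across all 6 JQ1 libraries, and among the libraries of JQ1-FCPF with sgRNA, replicate 2 is the bluest for MCM10, RRM2, UHRF1 and TIPIN.

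JQ1 without sgRNA was set against the control, a contrast that holds the compound, Cas9FCPF and transfection together. Of the 41, 8 fell and 0 rose (edgeR's quasi-likelihood fit over all genes, called at an adjusted p under 0.05), where 6.23% of all genes tested fell and 6.07% rose. All 8 belong to helicase loading, helicase activation, nucleotide synthesis or methylation maintenance: the MCM2-7 subunits MCM3, MCM4 and MCM6, the activation factors MCM10, GINS3 and GINS4, the reductase subunit RRM2, and UHRF1. None of the 8 polymerase genes, the 6 clamp and clamp loader genes or the 7 loading factors passed the test in this fit. That split by role did not hold without the 2 libraries that stand apart, where POLA1, POLE and ORC5 were called lower as well (adjusted p = 0.00818, 0.0123 and 0.0231). In bulk RNA, fewer cells in S phase and less RNA per cell cannot be told apart.

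MCM10, a factor that binds the helicase and is needed for its activation (chr10:13161554-13211104, GRCh38), had 50.4, 51.8 and 50.3 CPM in JQ1 without sgRNA, against 73.4, 73.7 and 75.5 CPM in the control. The groups did not overlap, and the gap was many times the spread within either group. With 3 libraries each, that spread is only roughly known. The level of MCM10 fell 1.46-fold (log2 change -0.55 ± 0.10 SE from the fit over all 15 libraries, edgeR adjusted p = 0.00251).

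GINS3, a subunit of the GINS complex of the CMG helicase (chr16:58295080-58406144), had 16.8, 13.4 and 12.7 CPM in JQ1 without sgRNA, against 24.7, 22.5 and 22.7 CPM in the control. Replicate 1 was the highest of the treated libraries and still below every control library. The fall was 1.62-fold (log2 change -0.70 ± 0.13 SE, edgeR adjusted p = 0.00262), the largest among the 41 in this comparison. In the annotation 10.9% of the exon bases of GINS3 are shared with an unnamed gene on the other strand, and the use of strand in counting is not given in the sources used here.

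UHRF1 recognises hemimethylated DNA behind the fork and brings the maintenance methyltransferase there (chr19:4903080-4962154). It had 87.6, 88.0 and 92.1 CPM in JQ1 without sgRNA, against 128, 135 and 139 CPM in the control, a log2 change of -0.59 ± 0.11 SE (edgeR adjusted p = 0.00339). RRM2, the regulated small subunit of ribonucleotide reductase (chr2:10122328-10131419), had 120, 122 and 115 CPM, against 163, 164 and 167 CPM in the control. Both genes showed groups that were narrow and far apart, and RRM2 fell 1.38-fold (edgeR adjusted p = 0.00775). RRM1, which encodes the large catalytic subunit of the same enzyme, had 135, 146 and 123 CPM, against 131, 138 and 144 CPM in the control, so its groups overlapped.

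The 6 MCM2-7 subunits all had negative log2 changes in JQ1 without sgRNA, from -0.42 for MCM4 to -0.19 for MCM7, with a median of -0.34. MCM4 had 283, 284 and 272 CPM in JQ1 without sgRNA, against 353, 371 and 394 CPM in the control. MCM3 had 260, 255 and 272 CPM, against 343, 332 and 337 CPM, and MCM6 127, 135 and 109 CPM, against 159, 158 and 172 CPM. MCM4 fell 1.33-fold, MCM6 1.32-fold and MCM3 1.29-fold (edgeR adjusted p = 0.0105, 0.0483 and 0.0183), and in all 6 subunits the JQ1 libraries lay below every control library. The summed level of the 6 was 1503 ± 24.0 CPM in JQ1 without sgRNA and 1861 ± 68.6 CPM in the control (SD, n = 3 each). GINS4, a partner of GINS3 in its complex, had 33.0, 30.6 and 33.3 CPM, against 44.1, 41.4 and 42.0 CPM in the control, and fell 1.32-fold (edgeR adjusted p = 0.0386). In the annotation 23.6% of the exon bases of GINS4 are shared with GPAT4-AS1 and an unnamed gene, both on the other strand. Loading factors had changes of both signs: ORC2, ORC3 and CDT1 had log2 changes of 0.22, 0.26 and 0.27, and ORC5 of -0.31, with no call among the 7.

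Groups did not overlap for 26 of 41 members in this comparison, as for 6359 of all 15517 genes tested, and the median log2 change was -0.14 for the members and 0.00 for all genes. Without the 2 libraries that stand apart, neither of which is in these groups, the fit gave 16 members lower and 3 higher (ORC2, ORC3 and CDT1). The lower ones were the same 8 with ORC5, MCM2, MCM5, CDC45, GINS2, POLA1, POLE and FEN1, and of all genes 13.1% were then lower and 13.8% higher. With 1 library left out at a time the count was 4 without control replicate 3 or JQ1 without sgRNA replicate 3, 5 without control replicate 1 or the other two libraries of JQ1 without sgRNA, and up to 12 otherwise, the highest without JQ1-FCPF with sgRNA replicate 2. MCM10, GINS3, UHRF1 and RRM2 kept the call in all 22 alternatives, whereas MCM3, MCM4, MCM6 and GINS4 lost it without at least 1 library, with adjusted p over all alternatives of 0.000323 to 0.0804, 0.000117 to 0.0703, 0.000220 to 0.204 and 0.000499 to 0.139.

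JQ1 with sgRNA against the control gave a list that overlapped with this one but added 3 genes. Again 8 of 41 fell and 0 rose, beside 7.04% of all genes lower and 7.21% higher. MCM3, MCM10, GINS3, RRM2 and UHRF1 fell here as they did without sgRNA, and MCM5, PCNA and TIPIN fell here, while MCM4, MCM6 and GINS4 had log2 changes of -0.27, -0.23 and -0.34 that did not pass. Both comparisons use the same 3 control libraries, and no member was called between the JQ1 groups themselves.

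GINS3 had 12.2, 13.3 and 14.3 CPM in JQ1 with sgRNA, below every control library, and fell 1.76-fold (log2 change -0.81 ± 0.13 SE, edgeR adjusted p = 0.000912). MCM10 had 45.7, 47.1 and 51.9 CPM and fell 1.54-fold (adjusted p = 0.000912). The 3 libraries of either gene lay close together and apart from the control. UHRF1 had 88.8, 88.1 and 81.7 CPM and fell 1.56-fold (adjusted p = 0.00186), and RRM2 had 113, 126 and 122 CPM and fell 1.37-fold (adjusted p = 0.00828).

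TIPIN, a partner of TIMELESS that stabilises stalled forks (chr15:66336206-66386746), had 17.6, 20.3 and 17.1 CPM in JQ1 with sgRNA, against 30.1, 29.3 and 27.5 CPM in the control. It fell 1.58-fold (log2 change -0.66 ± 0.12 SE, edgeR adjusted p = 0.00186), and the call held in all 22 alternatives. Of the exon bases of TIPIN, 21.0% are shared with the pseudogene RPL9P25.

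PCNA, the sliding clamp, had 146, 201 and 192 CPM in JQ1 with sgRNA, against 234, 257 and 225 CPM in the control. Replicate 1, the library with the high mitochondrial share, was the lowest of the 15, and the fall of 1.33-fold (edgeR adjusted p = 0.0310) was no longer called without it (adjusted p = 0.112), nor without any of the control libraries (0.0605 to 0.118, with 0.00570 to 0.118 over all 22 alternatives). MCM5 followed the same course: 157, 199 and 224 CPM, against 240, 277 and 257 CPM in the control, fell 1.34-fold (adjusted p = 0.0197), with an adjusted p of 0.0649 without replicate 1 of JQ1 with sgRNA and of 0.0846 and 0.0651 without control replicates 2 and 3 (0.00483 to 0.0846 over all alternatives). MCM3, with 279, 274 and 273 CPM in JQ1 with sgRNA, fell 1.23-fold (adjusted p = 0.0407) and lost the call without any of 10 libraries (0.00453 to 0.114 over all alternatives).

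Without the 2 libraries that stand apart, 12 members were lower, among them the same 8, and 2 higher (CDT1 and POLD2), beside 11.3% and 11.5% of all genes. CDT1, the loading factor that is destroyed in S phase, then rose 1.41-fold, where in all libraries its 219, 319 and 345 CPM in JQ1 with sgRNA against 214, 248 and 242 CPM in the control gave a log2 change of 0.33 (95% interval 0.00 to 0.65). With 1 library left out at a time the count was 5 without control replicate 2 or 3 and up to 12 otherwise, the highest again without JQ1-FCPF with sgRNA replicate 2. In all libraries, groups did not overlap for 21 members, beside 34.5% of all genes tested, and the median log2 change was -0.12 for the members and 0.01 for all genes.

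**Figure D3:**
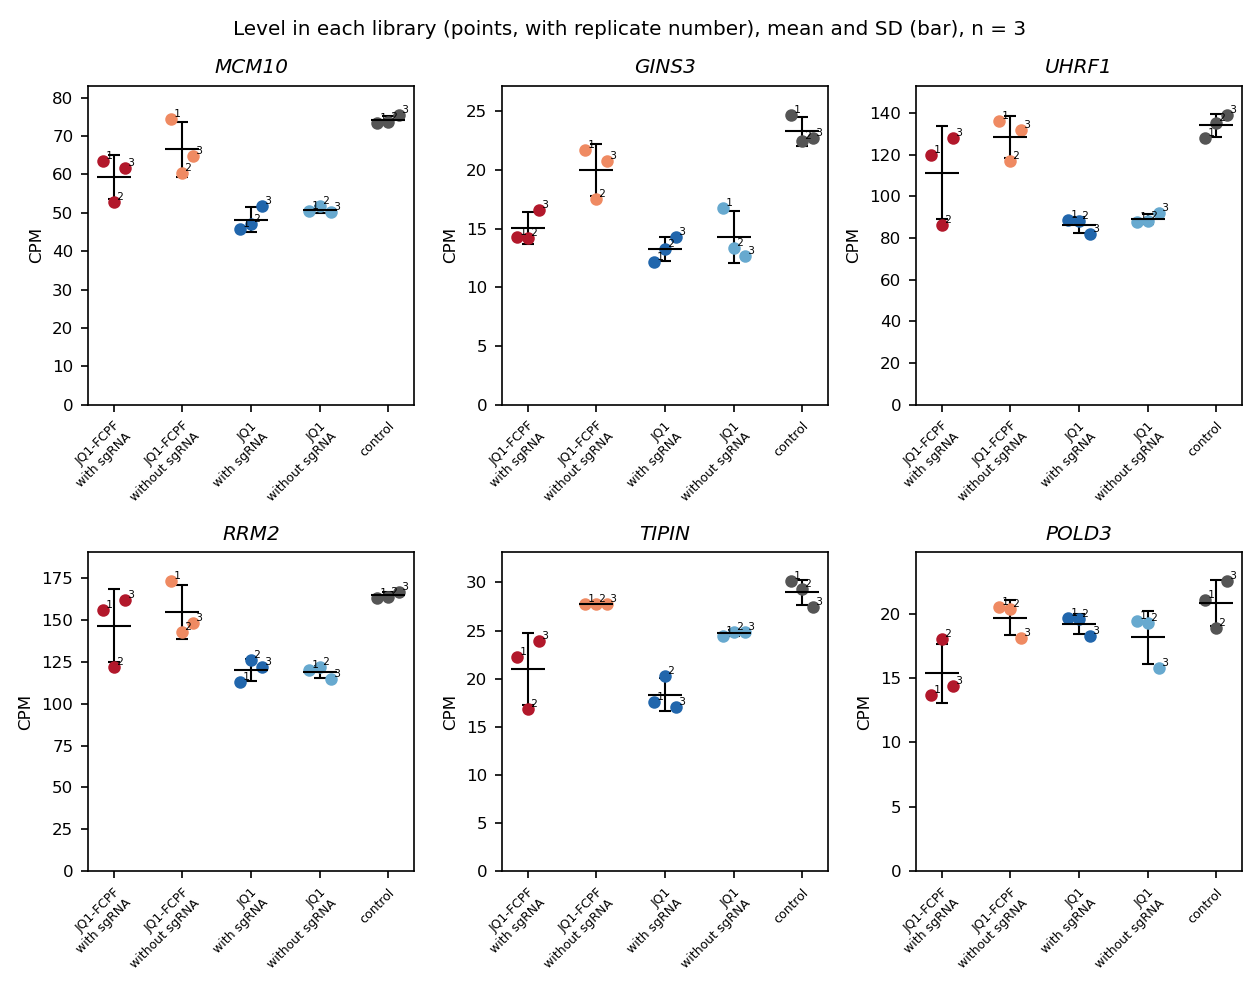
CPM of 6 members in each of the 15 libraries (points with replicate number), with the mean and SD of each group of 3 (bars), axes from 0. MCM10, UHRF1 and RRM2 are low in all 6 JQ1 libraries and in JQ1-FCPF with sgRNA replicate 2, TIPIN is lowest in the 6 libraries with sgRNA, and POLD3 is lowest in JQ1-FCPF with sgRNA replicates 1 and 3.

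JQ1-FCPF without sgRNA was set against the control in the same way. No member was called by edgeR or by DESeq2, no member had an unadjusted p under 0.05, and 0.00644% of all genes tested were lower and 0% higher. All 41 of the 95% intervals lay within 1.5-fold in either direction. GINS3 had the smallest p, with 21.7, 17.5 and 20.8 CPM, against 24.7, 22.5 and 22.7 CPM in the control, and a log2 change of -0.22 (95% interval -0.48 to 0.04). MCM10 had 74.4, 60.4 and 64.8 CPM and a log2 change of -0.16 (-0.36 to 0.04), UHRF1 136, 117 and 132 CPM and -0.06 (-0.30 to 0.17), and RRM2 173, 143 and 148 CPM and -0.09 (-0.31 to 0.12). MCM6 had 182, 125 and 122 CPM and a log2 change of -0.19 (-0.46 to 0.08), with replicate 1 above every control library, and GINS2 60.3, 60.7 and 57.3 CPM and -0.17. Groups did not overlap for 2 members, beside 7.46% of all genes, and the median log2 change was -0.05 for the members and 0.00 for all genes.

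JQ1-FCPF with sgRNA against the control gave 4 members lower and 0 higher, where 4.79% of all genes were lower and 2.42% higher. They were GINS3, TIPIN, POLD3 and MCM10. GINS3 had 14.3, 14.2 and 16.6 CPM in JQ1-FCPF with sgRNA, against 24.7, 22.5 and 22.7 CPM in the control, with all 3 treated libraries low. It fell 1.54-fold (log2 change -0.63 ± 0.13 SE, edgeR adjusted p = 0.00377), and this call held in all 22 alternatives.

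TIPIN had 22.3, 16.8 and 23.9 CPM in JQ1-FCPF with sgRNA, against 30.1, 29.3 and 27.5 CPM in the control, and fell 1.37-fold (edgeR adjusted p = 0.0194). Replicate 2 was the lowest, and without it the adjusted p was 0.0733. Without control replicates 1 and 2 it was 0.0758 and 0.0626, and over all 22 alternatives it ran from 0.00647 to 0.0955.

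POLD3, an accessory subunit of polymerase delta (chr11:74493851-74669117), had 13.7, 18 and 14.4 CPM in JQ1-FCPF with sgRNA, against 21.1, 18.9 and 22.5 CPM in the control. Here replicates 1 and 3 were the low ones and replicate 2 lay just under the lowest control library. The fall was 1.36-fold (log2 change -0.44 ± 0.13 SE, edgeR adjusted p = 0.0363). It was not called without control replicate 1 or 3 or without replicate 1 or 3 of JQ1-FCPF with sgRNA (adjusted p of 0.0980 to 0.167, and 0.00189 to 0.167 over all alternatives). POLD1, the catalytic subunit, had 250, 264 and 265 CPM, against 242, 244 and 258 CPM in the control.

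MCM10 had 63.4, 52.9 and 61.7 CPM in JQ1-FCPF with sgRNA and fell 1.25-fold (edgeR adjusted p = 0.0480), a call that held in 6 of 22 alternatives and was lost without any of 12 libraries (adjusted p of 0.0221 to 0.154 over all alternatives, the highest without replicate 2 of JQ1-FCPF with sgRNA). UHRF1 and RRM2 did not pass. UHRF1 had 120, 86.2 and 128 CPM and RRM2 156, 122 and 162 CPM, so that replicate 2 alone lay at the level of the JQ1 libraries for both. Of the 8 members lower in JQ1 without sgRNA, replicate 2 lay within the range of the 6 JQ1 libraries for 7, replicate 1 for 2 and replicate 3 for 1.

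In this comparison groups did not overlap for 10 members, beside 25.1% of all genes, and the median log2 change was -0.03 for the members and 0.01 for all genes. Without the 2 libraries that stand apart, 3 members were lower (GINS3, POLD3 and TIPIN) and 0 higher, beside 6.88% and 4.21% of all genes. With 1 library left out at a time the count was 1 without control replicate 1, 2 without control replicate 2 or 3 or without any library of JQ1-FCPF with sgRNA, and up to 4 otherwise. MYC, which is not a member, averaged 59.5 ± 1.95 CPM in JQ1-FCPF with sgRNA and 197 ± 8.74 CPM in the control (SD, n = 3 each), with replicate 2 no exception in its range of 57.3 to 61.0 CPM.

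**Figure D4:**
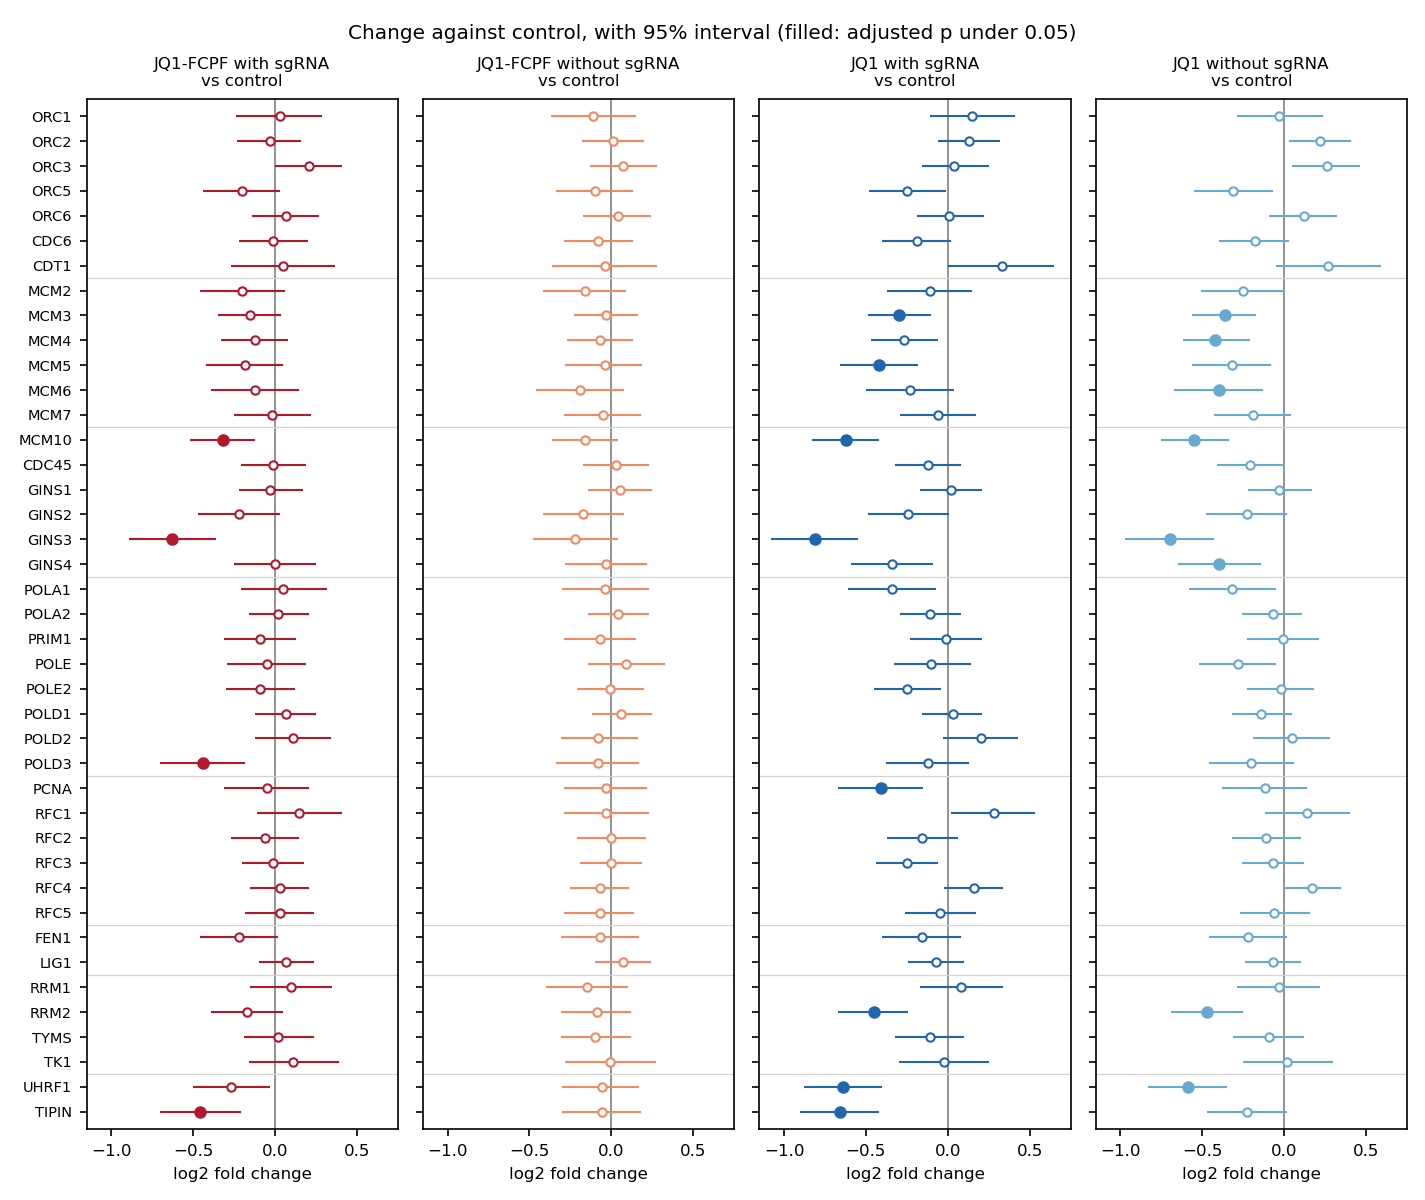
Log2 fold change of each of the 41 genes against the control in the 4 treated groups, with 95% intervals from the edgeR fit; filled points passed an adjusted p under 0.05 and lines separate the roles. GINS3 is filled in 3 of the 4 panels, and the panel of JQ1-FCPF without sgRNA has no filled point.

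Setting JQ1-FCPF against JQ1, both at 1 µM for 1 h and both without sgRNA, compares the compounds with the control left out. Of 41 members 7 were higher with JQ1-FCPF and 0 lower, where 4.11% of all genes were higher and 3.69% lower. UHRF1 averaged 128 ± 10.1 CPM with JQ1-FCPF and 89.2 ± 2.46 CPM with JQ1 (SD, n = 3 each), with groups far apart, and was 1.44-fold higher (log2 0.53 ± 0.11 SE, edgeR adjusted p = 0.0123). MCM10 was 1.31-fold and GINS3 1.40-fold higher (adjusted p = 0.0231 and 0.0301), and RRM2, MCM4, MCM3 and POLE, the catalytic subunit of polymerase epsilon, were 1.30-fold, 1.27-fold, 1.26-fold and 1.30-fold higher (adjusted p = 0.0345, 0.0360, 0.0381 and 0.0464). POLE had 203, 255 and 239 CPM with JQ1-FCPF, against 181, 169 and 187 CPM with JQ1. The libraries of the groups did not overlap for any of the 7. Other lists moved in the same contrast: mitochondrially encoded genes had positive log2 differences in 13 of 13 (median 0.80, with MT-ND1, MT-ATP8 and MT-CYB called higher), and genes of G2 and mitosis negative ones in 26 of 28 (median -0.16, with 4 called lower and 0 higher). Groups did not overlap for 3 of the 13 and 14 of the 28, beside 36.2% of all genes. The mitochondrial share of counts was 2.76, 5.17 and 5.65% with JQ1-FCPF, against 2.28, 2.31 and 3.18% with JQ1, so replicate 1 of JQ1-FCPF lay within the JQ1 range. The part of these lists in the members' differences was not tested.

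For 34 of the 41 members the 95% interval of this difference lay within 1.5-fold, and the clamp and clamp loader genes ran from -0.24 to 0.11 (log2) with no call. Groups did not overlap for 22 members, beside 36.2% of all genes, and the median log2 difference was 0.11 for the members and 0.00 for all genes. Without the 2 libraries that stand apart the fit gave 12 members higher, among them the same 7, and 2 lower (CDT1 and RFC4). Of all genes, 11.3% were then higher and 11.3% lower. With 1 library left out the count was 0 without JQ1 replicate 2 or JQ1-FCPF replicate 3, 1 without JQ1 replicate 1 or 3, 2 and 3 without JQ1-FCPF replicates 1 and 2, and up to 9 otherwise. UHRF1 held in 19 of 22 alternatives, and its adjusted p ran from 1.10e-05 to 0.0673, the highest without JQ1 replicate 2. GINS3 held in 18, MCM10 in 17, MCM4 in 15, MCM3 in 14 and POLE in 12. Their highest edgeR adjusted p values were 0.132, 0.0854, 0.119, 0.151 and 0.187. RRM2 lost the call without any library of either group (edgeR adjusted p of 0.0601 to 0.112).

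With sgRNA in both groups, edgeR called 0 members between JQ1-FCPF and JQ1, 8 had an unadjusted p under 0.05, and DESeq2 called 1, UHRF1, where 1.18% of all genes were higher and 1.77% lower. UHRF1 had 120, 86.2 and 128 CPM with JQ1-FCPF and sgRNA, against 88.8, 88.1 and 81.7 CPM with JQ1 and sgRNA (log2 difference 0.37, 95% interval 0.13 to 0.61, edgeR adjusted p = 0.0785). Of the JQ1-FCPF libraries, replicate 2 lay among the JQ1 libraries. POLA1, the catalytic subunit of polymerase alpha, had 54.2, 36.0 and 52.9 CPM, against 32.6, 41.1 and 35.4 CPM with JQ1 (log2 difference 0.39, 95% interval 0.12 to 0.66), with the same replicate low. For 36 of 41 members the interval lay within 1.5-fold.

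Without replicate 2 of JQ1-FCPF with sgRNA, 9 members were called, 7 higher and 2 lower, and without both libraries that stand apart 10, 8 higher and 2 lower, beside 9.76% and 10.4% of all genes. Replicate 2 was singled out because it lay near the JQ1 libraries in these genes, so leaving it out widens this difference by construction, and nothing is read from these counts. In all libraries, 5 members had groups that did not overlap, beside 15.5% of all genes, and the median log2 difference was 0.11 for the members and -0.01 for all genes.

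The sgRNA was compared within each compound. With JQ1-FCPF, 1 member was lower with sgRNA and 0 higher, where 4.20% of all genes were lower and 2.06% higher. It was TIPIN, with 22.3, 16.8 and 23.9 CPM with sgRNA, against 27.8 CPM in each of the 3 libraries without sgRNA, a fall of 1.32-fold (log2 change -0.40 ± 0.12 SE, edgeR adjusted p = 0.0450). Over 22 alternatives its adjusted p ran from 0.0228 to 0.169 and passed in 6, and it was lost without any of 12 libraries, among them replicate 2 with sgRNA (0.153). The count of called members was 0 without any of 10 libraries (all of the control and of JQ1 without sgRNA, JQ1 with sgRNA replicate 3, JQ1-FCPF without sgRNA replicates 2 and 3 and JQ1-FCPF with sgRNA replicate 1) and 2 without JQ1 with sgRNA replicate 1 or JQ1-FCPF with sgRNA replicate 3. GINS3 had 14.3, 14.2 and 16.6 CPM with sgRNA, against 21.7, 17.5 and 20.8 CPM without, groups that did not overlap (log2 change -0.41, 95% interval -0.68 to -0.14, adjusted p = 0.0620). POLD3 had 13.7, 18 and 14.4 CPM, against 20.5, 20.4 and 18.1 CPM (log2 change -0.36, -0.62 to -0.09, adjusted p = 0.0976), and it alone was called, 1.39-fold lower, without the 2 libraries that stand apart, where 6.62% of all genes were lower and 3.55% higher. RRM1 had 132, 162 and 148 CPM with sgRNA, against 151, 103 and 117 CPM without (log2 change 0.25, adjusted p = 0.231), and its groups overlapped.

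With JQ1 in both groups, 0 members were called by edgeR or by DESeq2, 4 had an unadjusted p under 0.05, and 0.0129% of all genes were lower and 0% higher with sgRNA. TIPIN again had the smallest p, with 17.6, 20.3 and 17.1 CPM with sgRNA, against 24.4, 24.9 and 24.9 CPM without, and no overlap (log2 change -0.43, 95% interval -0.68 to -0.19, adjusted p = 0.502). PCNA, POLE2 and ORC3 followed, with log2 changes of -0.29, -0.22 and -0.21. Thus all 6 libraries with sgRNA had less TIPIN than all 9 libraries without it, a description made after its values were seen. Of the 41 intervals, 38 with JQ1-FCPF and 40 with JQ1 lay within 1.5-fold.

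**Figure D5:**
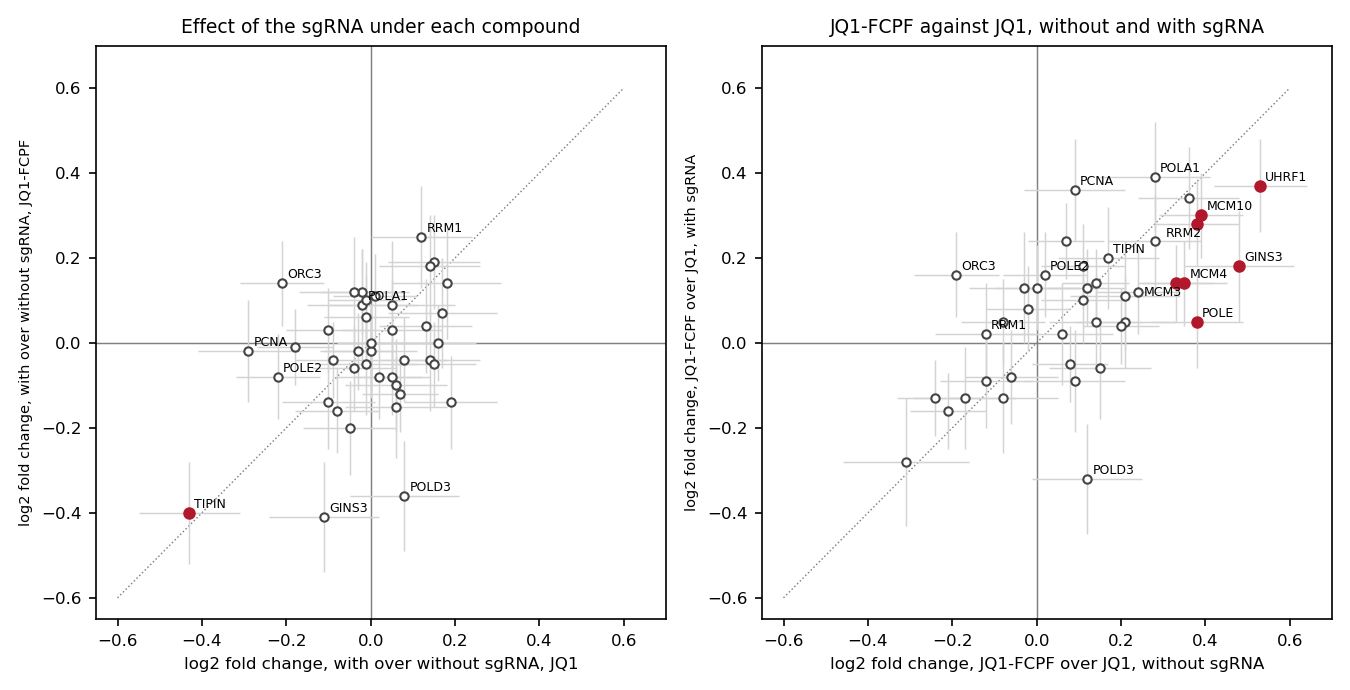
Log2 fold change of each of the 41 genes for the sgRNA under JQ1-FCPF (vertical) and under JQ1 (horizontal), left, and for JQ1-FCPF over JQ1 with (vertical) and without sgRNA (horizontal), right; bars are SE, filled points passed an adjusted p under 0.05 on at least 1 axis, and the dotted line marks equal change. TIPIN lies near the line at -0.43 and -0.40, and the 7 genes higher with JQ1-FCPF lie to the right of 0 on the right panel.

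Whether the sgRNA changed the members by unequal amounts under JQ1-FCPF and JQ1 was tested as an interaction. There 0 members were called by edgeR or by DESeq2, with 2 at an unadjusted p under 0.05, beside 0.593% of all genes lower and 0.193% higher. For TIPIN the difference was 0.03 on the log2 scale (95% interval -0.32 to 0.38). ORC3, an origin recognition subunit, had 0.35 (0.06 to 0.64, edgeR adjusted p = 0.264) and POLD3 -0.44 (-0.81 to -0.07, adjusted p = 0.278). POLE and GINS3 followed, with -0.33 and -0.30 (adjusted p = 0.366 and 0.480). The members' median was -0.02 and that of all genes 0.00. Groups did not overlap for 6 members with JQ1-FCPF and 8 with JQ1, beside 22.6% and 15.4% of all genes, and the median log2 changes of the members were -0.02 and 0.00, against 0.01 for all genes in both.

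A further list held 55 other genes of replication, among them further subunits, checkpoint and licensing regulators. In JQ1 without sgRNA against the control 4 were lower and 1 higher: MCM9, a helicase related to MCM2-7, fell 1.40-fold (edgeR adjusted p = 0.0169), POLE3, TOPBP1 and CHTF8 fell 1.34-fold, 1.26-fold and 1.34-fold, and RPA3, the small subunit of the single-strand binding protein, rose 1.29-fold. In JQ1 with sgRNA 2 were lower, DBF4, the activator of the kinase CDC7, by 1.32-fold and MCMBP by 1.24-fold. With JQ1-FCPF and sgRNA 1 was lower, MCM9, by 1.43-fold, and with JQ1-FCPF without sgRNA 0. Medians of the 55 were -0.09, -0.09, 0.03 and -0.03 in that order of the groups. Of all genes tested, 6.23% were lower and 6.07% higher in JQ1 without sgRNA, and 7.04% and 7.21% in JQ1 with sgRNA. In JQ1-FCPF with sgRNA these shares were 4.79% and 2.42%, and in JQ1-FCPF without sgRNA 0.00644% and 0%. Between the compounds RECQL4 was 1.41-fold higher and RPA3 1.27-fold lower with JQ1-FCPF without sgRNA, and SAMHD1 was 1.35-fold higher with sgRNA. Of all genes, 4.11% were higher and 3.69% lower without sgRNA, and 1.18% higher and 1.77% lower with it.

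Among 18 regulators of the G1/S transition, which hold the E2F factors that bind sites like those printed above, 7 fell and 0 rose in each JQ1 group against the control. E2F1 fell 1.41-fold with sgRNA and 1.48-fold without, E2F4 1.43-fold and 1.49-fold, the phosphatase gene CDC25A 1.37-fold and 1.30-fold, and CCNE2, a cyclin E gene, 2.14-fold and 1.87-fold (edgeR adjusted p = 0.00148 and 0.00523). With JQ1-FCPF and sgRNA 4 fell against the control, E2F2 by 2.17-fold, E2F8 by 1.75-fold, CCNE2 by 1.60-fold and CDC25A by 1.36-fold, and with JQ1-FCPF without sgRNA 0 of 18 passed. Between the compounds without sgRNA, 4 were higher with JQ1-FCPF and 0 lower: E2F4 by 1.51-fold, E2F1 by 1.47-fold, CCNE2 by 1.57-fold and E2F3 by 1.30-fold. E2F2 was also 1.86-fold lower in JQ1-FCPF with sgRNA than in JQ1 with sgRNA and fell 2.04-fold with sgRNA under JQ1-FCPF, and its interaction passed (log2 -1.12 ± 0.17 SE, adjusted p = 0.00187). For the contrasts with the control and between the compounds, shares of all genes called were those given above for the other replication genes. The part of these regulators in the members' levels was not tested.

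Of 28 genes of G2 and mitosis, 6 rose and 0 fell in JQ1 without sgRNA against the control, among them CDC25C by 1.62-fold, CENPA by 1.38-fold, NEK2 by 1.35-fold and CDK1 by 1.29-fold, and their median log2 change was 0.18. In JQ1 with sgRNA 1 rose (CDC25C, log2 change 0.59) and 0 fell, with a median of 0.11. With JQ1-FCPF and sgRNA 0 rose and 1 fell, AURKA, by 1.40-fold, with a median of 0.10. Mitochondrially encoded genes had a median of -0.71 in JQ1 without sgRNA against the control, with 3 of 13 lower, of -0.03 in JQ1 with sgRNA, 0.08 in JQ1-FCPF without sgRNA and 0.10 in JQ1-FCPF with sgRNA. For these contrasts too, shares of all genes called were those given above for the other replication genes. The part of cell cycle distribution and of RNA quality in the falls above was not tested.

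Of the 8 members lower in JQ1 without sgRNA, 6 had a RefSeq window, and 4 of these (GINS3, MCM3, MCM6 and UHRF1) held an E2F site, 2 (MCM10 and UHRF1) its form ending in G, 5 an NF-Y box, and 0 an E-box. Members such as CDC6, MCM2 and POLE2, which were not called in that comparison, held E2F sites as well.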

How the data were processed

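RNA of 15 K562 libraries was analysed. Per the labels' protocols, RNA was extracted with Trizol and sequenced by Azenta. The authors deposited whole-number read counts for 57500 genes per library, 1 column per library per the file headers. Aligner, build, annotation release and strand setting: not given in the sources used here. GENCODE release 29 (GRCh38) holds 56898 of the identifiers, 96.3% with the same span; gene coordinates are those of the deposited tables, and for POLD1 and RRM2 the span differed. Symbols were matched for 40907 identifiers. Promoter sequences came from RefSeq (GRCh38.p14).

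The deposited counts were fitted with edgeR 4.0.16 in R 4.3.3: filterByExpr left 15517 genes, TMM scaled the libraries, and all 15 libraries entered a quasi-likelihood fit with a mean for each group (biological coefficient of variation 11.1%). Of 9 comparisons, 1 was the interaction. Genes were called at a Benjamini-Hochberg adjusted p under 0.05 over all 15517. CPM were computed here with TMM scaling, except those of the cell type markers, which were scaled to library totals only. TPM came from the counts and the gene lengths in the tables. Groups came from the labels, and libraries of a group differed by more than sampling noise (chi-square per degree of freedom 2.96 to 48.9). Of the members, 16 share exon bases with another annotated gene (up to 26.2%, TYMS). The scripts were tested on simulated data.

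Members, gene lists, motifs and tests were chosen with earlier results of these data known. Named genes are members called in any comparison, the 4 members with the smallest p in each, the highest and lowest in level per role, PCNA and RRM2, and up to 4 called genes with the smallest p of each other list; further members were named after their values were seen. Alternatives were DESeq2 1.42.0, its size factors in edgeR, library totals only, no filter, a replicate block from the title letters, a fit of only the compared groups, and fits without 1 or 2 libraries.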

Additional observations from a re-analysis of the deposited data

How the results depend on the processing

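Of 1034 recomputed log2 changes of the named members (47 results under 22 alternatives), 888 stayed on their side of the threshold, 130 lost the call, 16 gained it and 0 turned direction. With only the groups compared in the fit, JQ1 without sgRNA against the control gave 19 (3 higher, 16 lower), JQ1-FCPF against JQ1 without sgRNA 13 (11 higher, 2 lower), JQ1-FCPF with sgRNA against the control 1, and JQ1-FCPF with against without sgRNA 0. Without the 2 libraries that stand apart, the counts were 19 for JQ1 without and 14 for JQ1 with sgRNA against the control, and for JQ1-FCPF against JQ1 14 without and 10 with sgRNA. These counts join both directions. In these comparisons 9.76 to 13.8% of all genes were then called higher, and a further 10.4 to 13.1% lower. Shares of all genes are given here only for the main fit and for the fit without these libraries. The other counts in this paragraph are not read as results about the members. For JQ1-FCPF with against without sgRNA the count was 2 with library totals only and 0 with no filter. For JQ1-FCPF against JQ1 with sgRNA it was 1 with DESeq2 and 1 with no filter, and the median log2 difference was 0.04 with library totals only. Leaving out 1 library at a time gave 0 to 2 members for JQ1-FCPF with against without sgRNA, 0 to 9 for JQ1-FCPF against JQ1 with sgRNA and 0 to 9 without, 1 to 4 for JQ1-FCPF with sgRNA, 5 to 12 for JQ1 with sgRNA and 4 to 12 for JQ1 without sgRNA against the control, and interaction medians of -0.12 to 0.03. Leaving out a library of a compared group changes the mean of that group as well as the spread. Where no library of the compared groups was left out, their means rest on the same libraries. UHRF1, for JQ1-FCPF against JQ1 without sgRNA, had a log2 difference of 0.53 ± 0.11 SE with all libraries. Without the 2 libraries that stand apart, neither in those groups, it was 0.52 ± 0.07 SE. The cause of the moves was not tested. Deviations showed little pairing by title letter: 4 of 30 same-letter pairs had correlated deviations over 0.1 (range -0.24 to 0.31), and 3 of 15 libraries correlated best with their own letter. Such correlations cannot show whether libraries were prepared in matched sets. With the letter as a replicate block the count for JQ1-FCPF with against without sgRNA was 0. Counting error weighs most on the members with few counts (the lowest was 168 in a library), and its part in the spread was not separated. With 3 libraries per group the precision is limited.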
